A study of Macaca mulatta with 161 samples.

Results

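Genes whose mean level was highest in the late blastocyst of the rhesus monkey were examined in single inner cells. For each of the 9781 genes with a mean of at least 1 FPKM over all 161 cells, the mean of log2(FPKM + 1) was taken per stage, and the highest mean of the other 3 stages was subtracted from the late mean. This difference, called the late lead here, chose the members: they are the 100 genes with the largest lead, out of 16049 genes in the table. FPKM counts fragments relative to transcript length and to the mapped fragments in each cell. It does not make cells fully comparable: the summed FPKM ran from 494332 in middle cell M55 to 708345 in late cell L22.

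The study sequenced inner cell mass cells of rhesus monkey (Macaca mulatta) embryos and its title names the naive and primed states of pluripotency in embryos that have not implanted. After ovarian stimulation, oocytes were fertilised and the embryos grown in culture, outer cells were stained with the dye PKH26, and cells without fluorescence were taken as inner. The early blastocyst (near embryonic day 5, when the cavity is small) is represented by 44 cells and the middle blastocyst (near day 5.5) by 39. The late blastocyst (near day 6, fully expanded, "later" in the labels) is represented by 52 cells and the hatching blastocyst (near day 7) by 26. No strain, genotype, treatment or age of the females is given, and no embryo, animal or culture is named for a cell. Each stage is therefore 1 sample and the cells are not replicates: every value below describes these cells, with no test between stages and no replicate check.

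During these days the inner cell mass separates into the epiblast, which forms the embryo proper, and the primitive endoderm, an epithelium that lines the cavity and later forms much of the yolk sac. Epiblast cells are known for pluripotency factors such as NANOG and SOX2. Primitive endoderm cells are known for the transcription factors GATA4 and SOX17, for basement membrane proteins and for apolipoproteins. Cells of both lineages divide quickly at this time.

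The label "inner cell mass" was set beside marker genes. In the late cells, clustering that left out the members and every listed gene gave 2 clusters. In the first, of 23 cells, 12 of 12 epiblast markers were raised and 0 of 12 endoderm markers. In the other, of 29 cells, 11 of 12 endoderm markers were raised and 0 of 12 epiblast markers. Each cluster was compared with the other, so a marker raised in 1 cannot be raised in both, and the counts of 0 largely follow. The clusters are called EPI-like and PE-like here. The hatching cells gave 19 EPI-like and 7 PE-like cells in the same way. Summed FPKM of 15 markers of trophectoderm, the outer layer, had a late median of 3545 and reached 30219 in late cell L13, against 8246 in the next late cell. Of these 15, KRT7, KRT18 and KRT19 were raised in the EPI-like late cluster, and CDX2 and ENPEP in the PE-like late cluster. In L13, KRT18 stood at 19894 FPKM, KRT8 at 8030 and CDX2 at 309. This cell fell among the PE-like cells although APOA1 was at 92.9 FPKM and GATA4 at 1.02 there, and it also had the fewest recovered reads (2.90 M, where M is mega). Summed FPKM of 10 cumulus and granulosa markers had a late median of 0.00 and a highest value of 69.0, and 7 of them were under 1 FPKM in every late cell. Recovered reads per cell had a late median of 10.2 M (2.90 to 14.6 M) and lay between 10.2 and 11.8 M in the median cell of the other stages. The median cell had 6962 genes at 1 FPKM in the late stage and 6714 to 7094 in the others.

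The late stage was the one with the fewest and smallest peaks. It held the highest mean for 1658 of the 9781 genes (17%, against 100 of the 100 members, which the rule fixes), and 30 genes led by at least 1 log2 unit. The late lead of the members ran from 0.65 to 2.05 with a median of 0.85, while its median over all genes was -0.39. The gene ranked 100 by the same measure had a lead of 1.01 in the early stage, 0.90 in the middle, 0.65 in the late and 1.97 in the hatching stage. Just inside the limit were PLK1, ACAD11 and ANKRD2, each with a lead of 0.65, and just outside it TOR1B and SRGAP2 with 0.65 and LCLAT1 with 0.64, so the limit cuts a continuous series. The stage with the next highest mean was hatching for 46 members, middle for 30 and early for 24. For 95 members the middle mean lay within 1 log2 unit of the early mean, a share near that of all genes (93.3%).

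**Figure D1:**
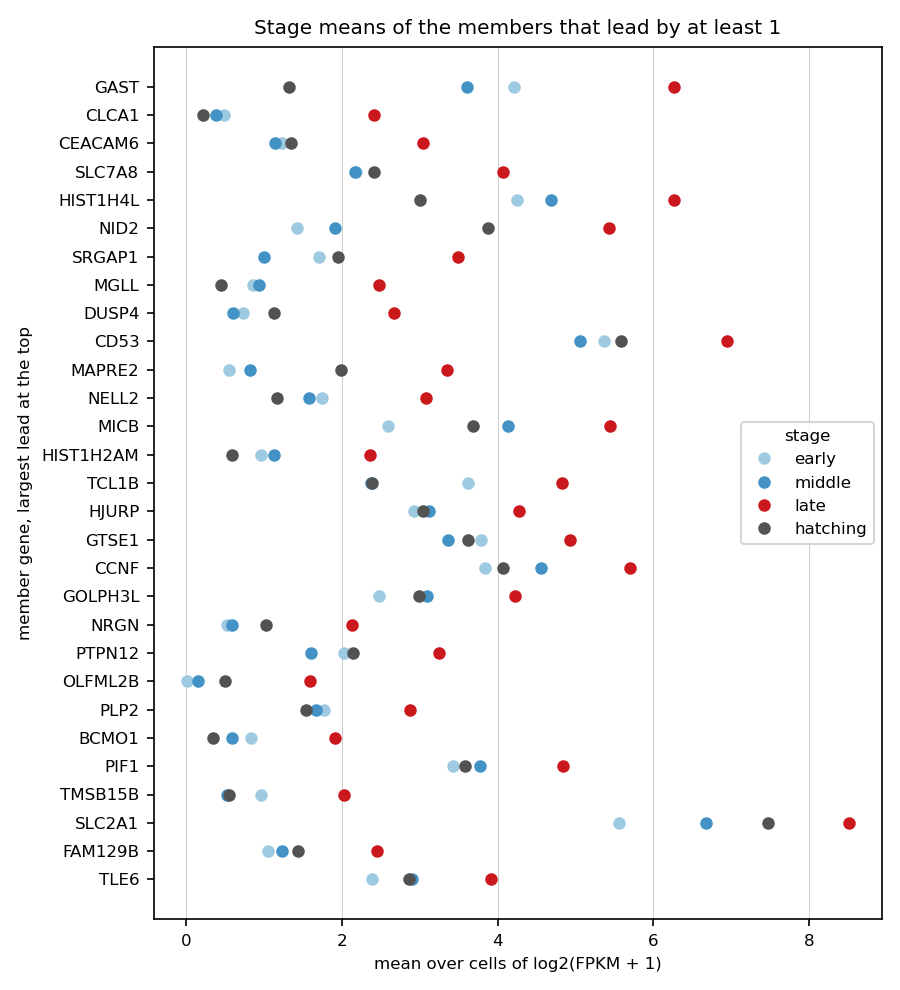
Mean over cells of log2(FPKM + 1) on the horizontal axis for 29 of the 30 members with a late lead of at least 1, in order of the lead from the top; each dot is the mean of 1 stage. The late dot lies farthest right in each row by the rule, and the next dot is that of a different stage from gene to gene: early for GAST, hatching for SLC7A8 and NID2, and middle for MICB and CCNF.

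The largest lead belonged to GAST, which encodes gastrin, the peptide hormone of the stomach that stimulates acid secretion. In late cells GAST ranged from 0.00 to 11.26 on the log2(FPKM + 1) scale with a median of 7.34, and its median was 4.73 in early, 4.36 in middle and 0.39 in hatching cells. The highest early cell stood at 10.98, the highest middle cell at 8.89 and the highest hatching cell at 6.36. The ranges overlapped, since single early cells came near the late maximum, yet the mean was 6.27 in late cells (SD 3.19) against 4.21, 3.61 and 1.32. GAST was at 1 FPKM or more in 88.5% of late cells (exact 95% Clopper-Pearson interval 76.6% to 95.6%) and in 34.6% of hatching cells (17.2% to 55.7%). Such intervals hold only the counting error over cells, and would be too narrow if cells share embryos.

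A wide spread between cells was common among the members. The SD over late cells exceeded the late lead for 97 of the 100, as it did for 99.8% of the 1658 genes with a lead above 0, and its median over members was 1.79, against 1.29 over all genes. For 28 members no late cell lay above every cell of the other stages (72.2% of all genes), and the most such cells for any member was 12 of 52, for MAPRE2, a microtubule plus-end binding protein. At 1 FPKM or more, 10 members were detected in every late cell (23% of all genes), 31 in at least 90% of late cells (41.2%) and 21 in at most 50% (30.4%). In 21 members, 5 cells held at least 50% of the summed late FPKM, a share near the 22.5% of all genes; the median share of 5 cells was 34.01% over members and 29.7% over all genes. The share of the top 5 cells was 84.3% for NUDT11, a diphosphoinositol phosphatase, 82.6% for NKX2-8, a homeobox factor, and 80.9% for CLCA1, a secreted regulator of chloride channels of mucus-producing cells. All 5 top cells of NUDT11 and of CLCA1 were PE-like. For 94 members the late median was also above the median of each other stage (15% of all genes). A late cell had a median of 71 members at 1 FPKM (49 to 88), against 52 in early, 53 in middle and 48 in hatching cells. The members were chosen for high levels in these late cells, so the counts of high late cells, medians and detected members follow in large part from the rule and nothing is read from them. The share of all 9781 genes detected was close between stages, with a median of 69.4% in late cells, 69.7% in early, 71.1% in middle and 66.2% in hatching cells.

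Correlation over the 52 late cells (Pearson r of log2(FPKM + 1)) sorted the members into sets by average linkage. The sets were chosen after their values were seen and are used as a description only; their names are labels of convenience. The correlations share library depth and the mix of EPI-like and PE-like cells. Over all 4950 pairs the median r was 0.05, with r of at least 0.5 in 289 pairs and of at most -0.5 in 30. The largest set has 31 genes with a median r of 0.52 and is called the endoderm-side set. The next has 15 genes with a median r of 0.40, most of them known for roles in chromosome segregation, and is called the mitotic set. Replication-dependent histones, grouped by name, form a set of 4. The remaining 50 members had a median r of 0.01 with each other. The larger correlated sets had been taken out by these same r values, so a low median largely follows from the split. Smaller groups remain among the 50, such as MICB, ADNP2 and MT1B with a median r of 0.45.

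**Figure D2:**
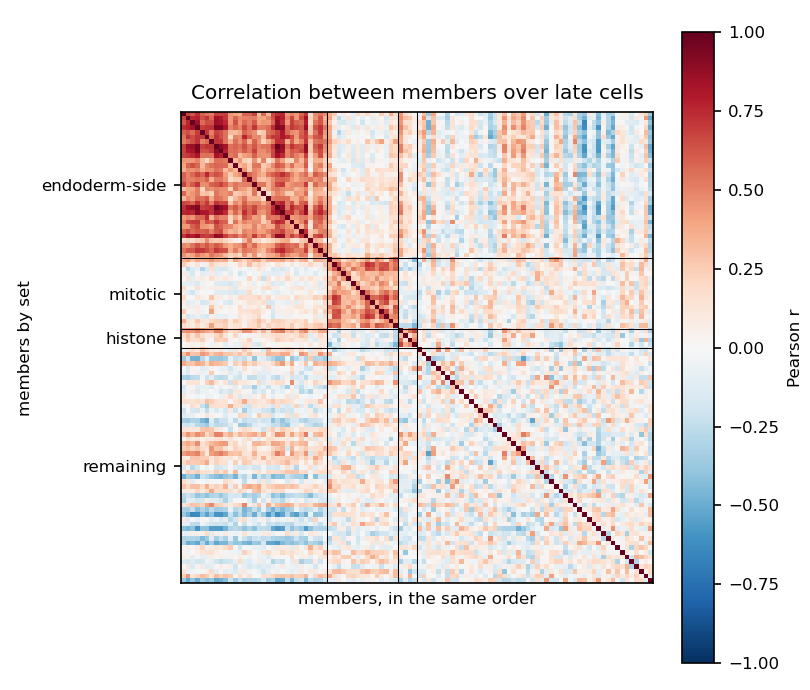
Pearson r between members over the 52 late cells, with the 100 members on both axes ordered by set and black lines between sets; red is a positive and blue a negative r. The endoderm-side block (median r 0.52) and the mitotic block (median r 0.40) stand out from the 50 remaining members (median r 0.01). These blocks were split off by the same r values, so the contrast largely follows from the split. The mean levels of the endoderm-side and mitotic sets had r of 0.12.

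The lineages were compared within the late stage. Among the members, 38 were at least 1 log2 unit higher in PE-like than in EPI-like late cells (8.58% of all genes were), 7 were at least 1 unit higher in EPI-like cells (9.03% of all genes) and 55 differed by less. In hatching cells, 29 members were at least 1 unit higher in PE-like cells (14.2% of all genes) and 29 at least 1 unit higher in EPI-like cells (33.7%). The median PE-like minus EPI-like difference was 0.41 over members and -0.02 over all genes in late cells. The classes rest on rebuilt clusters, and NID2, APOA1 and SOX17 are among the markers that named them, so their class difference is no result.

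Of the endoderm-side set, 30 of 31 genes were at least 1 log2 unit higher in PE-like late cells (8.58% of all genes were). The set was formed by correlation over these same late cells of both classes, so this count largely follows from the choice. It holds NID2 (nidogen 2, a basement membrane protein), SOX17 (a transcription factor of endoderm) and APOA1 (the main protein of high-density lipoprotein), which are among the endoderm markers. With them are CDH2 (N-cadherin), IGF1 (insulin-like growth factor 1), NRG1 (neuregulin 1, a ligand of ERBB receptors), SLC7A8 and SLC7A7 (light chains of amino acid transporters), SLC2A1 (the glucose transporter GLUT1), CEACAM6 (an adhesion molecule), MAPRE2, OLFML2B, CLCA1, NPC1L1 (a transporter for cholesterol uptake) and SLPI (a secreted protease inhibitor). The endoderm markers did not all peak late: 5 of 12 were highest in the late stage (41.7%, against 17% of all genes). The median lead of that list was -0.19, beside -0.39 over all genes. Within the EPI-like cells the median r of the endoderm-side set was 0.03 and within the PE-like cells 0.28, both below the 0.52 over all late cells. Single pairs kept a higher r within each class: NID2 and CDH2 had r of 0.94 over late cells, 0.61 within EPI-like and 0.69 within PE-like cells, and APOA1 and CDH2 had 0.90, 0.52 and 0.60.

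NID2 had the sixth largest lead. Its late cells ran from 0.03 to 10.56 with a median of 5.29, its hatching cells from 0.00 to 11.35 with a median of 1.86, and no early or middle cell exceeded 5.36. The stage means were 5.44 in late (SD 3.82) and 3.88 in hatching cells (SD 4.24). By class, PE-like cells averaged 8.44 in the late stage and 10.52 in the hatching stage, where the lowest of 7 cells stood at 9.45; EPI-like cells averaged 1.65 and 1.43. Hatching PE-like cells thus held more NID2 than late PE-like cells by 2.08 log2 units, although the late stage had the higher mean over all its cells.

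The same order was found for other genes of the set. APOA1 averaged 11.24 in late PE-like cells and 15.10 in hatching PE-like cells, which did not overlap: the highest late cell was at 13.71 and the lowest hatching cell at 14.10. SOX17 averaged 5.39 and 8.13, and CDH2 averaged 4.99 and 7.16. For CDH2 the classes also did not overlap between stages, with 6.41 in the highest late and 6.47 in the lowest hatching PE-like cell. Over the set, 14 of 31 genes were higher in late than in hatching PE-like cells (66.4% of all genes were), with a median difference of -0.14 beside 0.43 over all genes. In EPI-like cells 25 of 31 were higher in the late stage (51.9% of all genes), with a median of 0.22 beside 0.02. PE-like cells are 29 of the 52 late cells and 7 of the 26 hatching cells. When EPI-like and PE-like cells were given equal weight in both stages, the late lead stayed above 0 for 20 of 31 genes of the set, its median was 0.18 instead of 0.88, and 6 of the 31 remained among the 100 highest leads.

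The late PE-like cells were not uniform, and the comparison with hatching depends on which of them are taken. The mean level of the set ran from 1.4996 to 5.81 over the 29 cells, with a median of 4.43. When all stages were clustered together, 17 of them were PE-like and 12 stayed unnamed. The median level was 5.04 in the 17 and 3.36 in the 12. The 17 include L13, at 2.44, and the 12 include L6, at 4.43. Early cell E9, at 0.53, was also named PE-like in that clustering. By a score of markers, 23 of the 29 were PE-like, 3 were closest to trophectoderm, and L48, L53 and L61 were closest to epiblast. The part of these cells in the difference from hatching was measured by leaving them out. With the 17 cells, 19 of 31 genes were higher in late than in hatching PE-like cells and the median difference was 0.61, and with the 23 cells 18 were higher and the median was 0.44, so the sign of the median turned. Without L13 the count was 15 and the median -0.13. The 4 genes above stayed lower in late than in hatching PE-like cells in the 17 cells, by smaller differences: NID2 by -1.03, APOA1 by -3.21, SOX17 by -2.03 and CDH2 by -1.66.

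Some genes of the endoderm-side set peaked in late PE-like cells themselves. CLCA1 was at 1 FPKM or more in 23 of 29 late PE-like cells (mean 3.90, highest 9.33), in 3 of 23 late EPI-like cells, in 2 of 19 hatching EPI-like cells and in 0 of 7 hatching PE-like cells. MAPRE2 averaged 4.46 in late PE-like cells and 2.11 in hatching PE-like cells, against 1.96 and 1.94 in the EPI-like cells of these stages. CLCA1 and MAPRE2 were thus high in PE-like cells of the late stage, while the ranges of MAPRE2 overlapped between all 4 groups. SLPI was detected in 11 of 52 late cells, in 2 of 44 early and 1 of 39 middle cells, and in 0 of 26 hatching cells, where the exact interval reaches 13.2%. GLRX (glutaredoxin, which reduces mixed disulfides) was 1.81 log2 units higher in late than in hatching PE-like cells, and ZMAT3, an RNA-binding protein of the p53 response, 1.42 higher.

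SLC2A1, the basal glucose transporter of many embryonic cells, had the highest mean late level of the set. Late cells ran from 3.34 to 11.002 with a median of 8.46, hatching cells from 5.21 to 10.50 with a median of 7.17, middle cells from 0.44 to 9.23 and early cells from 0.19 to 8.20. All 52 late and all 26 hatching cells were above 1 FPKM, and the stage means went from 5.57 (early) through 6.67 (middle) to 8.52 (late) before 7.48 (hatching). Within PE-like cells the mean was 9.45 in the late and 9.75 in the hatching stage, and within EPI-like cells 7.34 and 6.65. Of the 23 genes of the hypoxia and glycolysis list with a mean of 1 FPKM, 5 were highest in the late stage (21.7%, against 17% of all genes). SLC2A1 alone was a member, and the median lead of that list was -0.68, beside -0.39 over all genes.

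IGF1 was near 0 in early and middle cells. Its highest early cell was at 0.92 and its highest middle cell at 1.09 on the log2 scale, while late cells reached 6.19 and hatching cells 6.51. It was at 1 FPKM or more in 24 of 29 late PE-like and 6 of 7 hatching PE-like cells, and in 1 of 23 late and 0 of 19 hatching EPI-like cells. OLFML2B, an extracellular matrix protein, was likewise at a mean of 0.01 in early and 0.15 in middle cells, with 1.59 in late and 0.49 in hatching cells.

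**Figure D3:**
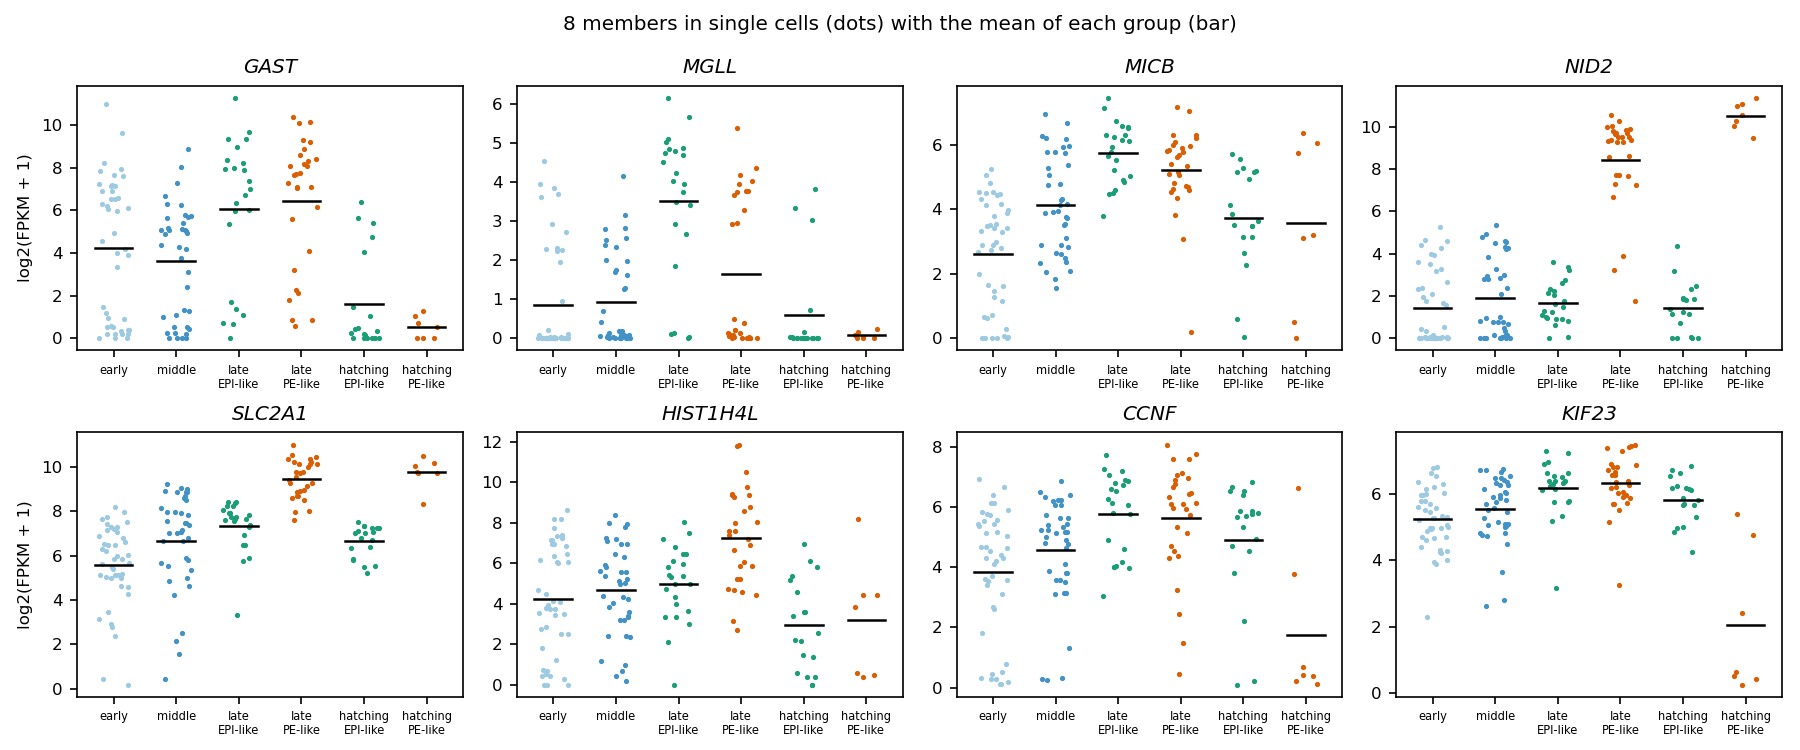
Level of 8 members in single cells on the log2(FPKM + 1) scale, by stage and, for late and hatching cells, by class; each dot is a cell and each bar the mean of its group. NID2 and SLC2A1 are high in PE-like cells of both stages, CCNF and KIF23 are low in most of the 7 hatching PE-like cells, and GAST, MGLL and MICB are highest on average in the late cells of each class.

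The mitotic set comprises HJURP (the chaperone that places CENP-A at centromeres), GTSE1, CCNF (cyclin F), PIF1 (a DNA helicase), the kinesins KIF18B, KIF2C and KIF23, INCENP and CDCA8 (chromosomal passenger complex), TPX2 (an activator of Aurora A on the spindle), PRC1 (central spindle), TACC3, MKI67, PLK1 (Polo-like kinase 1) and GTDC1, which encodes a glycosyltransferase-like protein and is not known for a mitotic role. These genes were broadly expressed: their late detection ran from 76.9% to 100% of cells with a median of 98.1%. The median PE-like minus EPI-like difference in late cells was 0.22, and HJURP alone reached 1 log2 unit, with 1.29. Within EPI-like and within PE-like late cells the median r was 0.41 and 0.46. The set was chosen by r over these same cells, so positive values inside each class follow in part from the choice.

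CCNF had a late range of 0.47 to 8.08 with a median of 6.12. Its median was 4.35 in early, 5.12 in middle and 5.13 in hatching cells, and the highest cells of these stages stood at 6.93, 6.87 and 6.84. In 11 late cells CCNF was above every cell of the other stages. KIF23, a motor of the central spindle, had late cells from 3.17 to 7.49 with a median of 6.35, and medians of 5.27, 5.77 and 5.67 in early, middle and hatching cells. It too exceeded every other cell in 11 late cells, although the bulk of the ranges overlapped. PLK1 was the most abundant of the set, with a late median of 8.18 (5.13 to 9.87) beside 7.42 in early, 7.35 in middle and 8.06 in hatching cells.

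The mean of the 15 genes in a cell was 5.15 in late cells (SD 0.86), 4.02 in early (SD 0.88), 4.24 in middle (SD 0.83) and 3.81 in hatching cells (SD 1.78). It was alike in late EPI-like (5.05, SD 0.82) and late PE-like cells (5.23, SD 0.90). Hatching EPI-like cells averaged 4.51 (SD 1.18), while hatching PE-like cells averaged 1.91 (SD 1.77), of which 1 cell, H1, stood at 5.82. The 7 PE-like cells all have title numbers of 1 to 18, a range with 5 EPI-like cells. Of these 5, H2, H4 and H6 stood at 2.19, 1.99 and 2.25, and H16 and H17 at 4.39 and 4.59. The lowest EPI-like cell numbered 22 to 47 was H35 at 3.54. The part of the number range in the class difference was not tested. In hatching cells, 14 of the 15 genes were at least 1 log2 unit lower in PE-like than in EPI-like cells (33.7% of all genes were). A median of 56.1% of all genes was detected in the hatching PE-like cells and 68.5% in the hatching EPI-like cells; the part of this in the difference was not tested. Late cell L33 had the lowest mitotic level of its stage, 2.48, with an endoderm-side level of 4.64. With the hatching cells whose title numbers run from 22 to 47, which are 14 EPI-like cells, as the only hatching cells, 9 of the 15 genes kept a lead above 0, the median was 0.13 and 0 remained among the 100 highest.

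The list of cell cycle genes shows how far the pattern reaches beyond the members. Of 20 listed genes with a mean of 1 FPKM, 13 were highest in the late stage (65%, against 17% of all genes). The median lead was 0.30, beside -0.39 over all genes, and MKI67 and PLK1 are members. BUB1 (0.62), CDK1 (0.58), CDC20 (0.58), TOP2A (0.56) and AURKB (0.52) had leads below the limit. Genes of DNA replication in the list did not follow: the lead was -0.16 for MCM2, -0.45 for MCM5 and -0.13 for PCNA, and -0.95 for RRM2, the small subunit of ribonucleotide reductase. CCNB1 and CDK1 were 4.71 and 4.73 log2 units higher in late than in hatching PE-like cells, but -0.28 and 0.18 apart in EPI-like cells.

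The histone set holds HIST1H4L, HIST1H2AM, HIST1H3I and HIST1H4C. HIST1H4L ranged from 0.00 to 11.88 in late cells with a median of 6.01, against medians of 4.01 in early, 5.02 in middle and 2.96 in hatching cells. In 9 late cells it was above every cell of the other stages, and all of the 5 highest late cells were PE-like. It averaged 7.27 in late PE-like and 5.00 in late EPI-like cells. HIST1H4C had the highest mean level of the members in late cells, 8.70 (SD 2.12), with 7.89 in early, 7.98 in middle and 6.74 in hatching cells. The set's level had r of -0.17 with the mitotic level over the 52 late cells. These genes have near-identical copies among which reads may be split, and their transcripts normally lack the poly(A) tail that the labelled molecule implies, so their levels are uncertain.

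**Figure D4:**
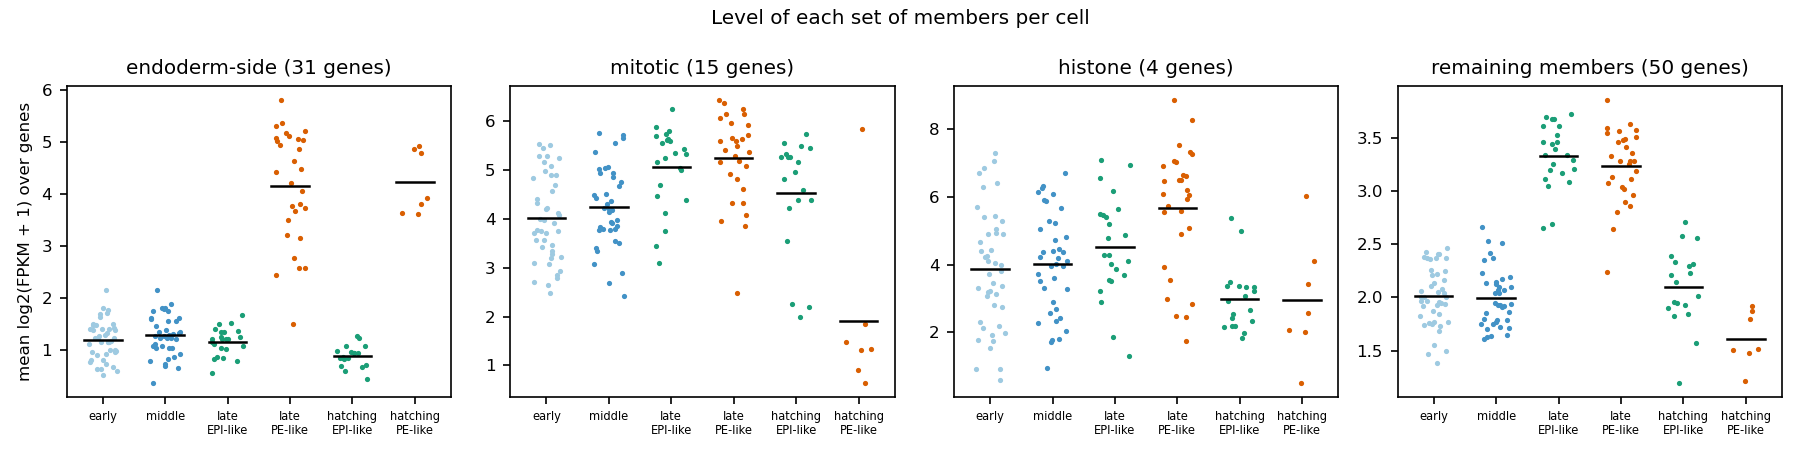
Mean of log2(FPKM + 1) over the genes of each set in single cells, by stage and class; each dot is a cell and each bar the mean of its group, and each panel has its own vertical range. The endoderm-side level is high in PE-like cells of both stages, the mitotic level is low in 6 of 7 hatching PE-like cells, and the level of the remaining 50 members is higher in nearly all late cells of either class than in the cells of the other stages.

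The remaining 50 members showed the late peak in both lineages. Their mean level per cell was 3.28 in late cells (SD 0.32, 2.24 to 3.86), 2.01 in early (highest 2.47), 1.996 in middle (highest 2.66) and 1.97 in hatching cells (highest 2.71). It was 3.34 in late EPI-like and 3.24 in late PE-like cells. The lowest late cell was L13 at 2.24, and the members were chosen for this order, so the gap is a description. The level had r of 0.38 with recovered reads over late cells, 0.35 within EPI-like and 0.45 within PE-like cells. Recovered reads had a median of 10.2 M in late, 10.2 M in early, 11.8 M in middle and 10.7 M in hatching cells. The part of depth in the late level was not tested. The median PE-like minus EPI-like difference was -0.06, and 46 of the 50 led in EPI-like cells, 48 in PE-like cells and 44 in both (5.9% of all genes), on means that the rule used. For each class this lead is the late mean of the class minus the highest of the early mean, the middle mean and the hatching mean of the same class, the early and middle cells being taken whole.

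MGLL, monoacylglycerol lipase, was highest on the epiblast side. Its late cells ran from 0.00 to 6.16 with a median of 3.13, and its median was 0.00 in early, 0.12 in middle and 0.00 in hatching cells, whose highest values were 4.54, 4.17 and 3.83. It exceeded every other cell in 10 late cells. It was at 1 FPKM or more in 19 of 23 late EPI-like and 12 of 29 late PE-like cells, and in 3 of 19 and 0 of 7 hatching cells of these classes.

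MICB, a stress-inducible ligand of the receptor NKG2D, was high in most late cells. They ran from 0.19 to 7.44 with a median of 5.66, against medians of 2.93 in early, 3.93 in middle and 3.56 in hatching cells, and 51 of 52 were at 1 FPKM or more. The mean was 5.75 in late EPI-like and 5.20 in late PE-like cells, and 3.73 and 3.56 in the hatching cells of these classes. GOLPH3L, a Golgi protein, was detected in all 52 late cells, from 2.06 to 6.002 with a median of 4.30, beside medians of 2.90, 3.51 and 3.50 in early, middle and hatching cells. In 10 late cells it was above every other cell.

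Several of the 50 act in signalling. DUSP4, a nuclear phosphatase that inactivates ERK and other MAP kinases, had a late median of 3.13 (0.00 to 5.61), and medians of 0.02 in early, 0.02 in middle and 0.17 in hatching cells. Its gain in detection was the largest of the members, from at most 38.5% of cells in another stage to 75% in late cells (61.1% to 86.0%), with 17 of 23 EPI-like and 22 of 29 PE-like cells. SRGAP1, a GTPase-activating protein downstream of SLIT and ROBO, had a late median of 3.74 (0.03 to 6.15), beside 1.85 in early, 0.37 in middle and 2.03 in hatching cells. NRGN, neurogranin, which binds calmodulin, was detected in 67.3% of late cells and in at most 34.6% of another stage. Of 20 FGF and ERK feedback genes with a mean of 1 FPKM, 3 were highest in the late stage (15%, against 17% of all genes). DUSP4 alone was a member, and the median lead was -0.73, beside -0.39 over all genes.

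TLE6, a component of the subcortical maternal complex of the oocyte, had a late median of 4.53 (0.00 to 6.14), beside 2.72 in early, 3.32 in middle and 3.88 in hatching cells, and was the single gene to peak late among 4 oocyte transcripts with a mean of 1 FPKM. CD53, a tetraspanin known from leukocytes, had a late median of 7.14 (0.64 to 10.05) and a hatching median of 6.71 (0.26 to 7.91). TCL1B, a relative of the AKT coactivator TCL1A, had a late median of 5.10 (0.06 to 9.82) beside 3.78 in early, 0.69 in middle and 1.996 in hatching cells. The ranges of these genes overlapped between all stages.

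Metallothionein MT1B, a small metal-binding protein, had the largest difference between the late and the hatching mean (5.63). Its late cells ran from 1.96 to 11.11 with a median of 6.76, its middle cells from 0.51 to 9.86 with a median of 6.74, and its hatching cells from 0.00 to 4.40 with a median of 0.76. Late and middle medians were thus close, and the late lead of 0.80 came from the means (6.64 and 5.84). MT1B was 6.16 log2 units higher in late than in hatching EPI-like cells and 5.53 higher in PE-like cells. Of 15 genes in the list of metallothioneins and zinc regulators 5 were highest in the late stage (33.3%, against 17% of all genes). The median lead was -0.29, beside -0.39 over all genes. In this list, MT1B included, 12 genes were higher in late than in hatching EPI-like cells (51.9% of all genes were). The median difference was 1.63, beside 0.02 over all genes. For the PE-like class the list had 13 such genes (66.4% of all genes) and a median of 1.04, beside 0.43 over all genes. Values differed widely between its genes: the late minus hatching difference in EPI-like and PE-like cells was 4.46 and 5.11 for MT1G, 2.53 and 1.04 for MT1X, 1.56 and 0.92 for MT1E, and -0.24 and -0.62 for the zinc exporter SLC30A1. Metallothioneins are near-identical, so reads may be split among them; the same holds for CEACAM6, FAM72A and GTF2H2, which have close relatives or copies.

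Of the 7 members at least 1 unit higher in EPI-like late cells, ANXA1 (annexin A1) had the largest difference, -2.63 as PE-like minus EPI-like. ANXA1 was detected in 13 of 23 EPI-like and 2 of 29 PE-like late cells. PLSCR3, a phospholipid scramblase of mitochondria, differed by -2.51, ANKRD2 by -2.04, MTL5 by -1.88, MGLL by -1.87, MT1B by -1.25 and ADNP2 by -1.12. None of the 12 epiblast markers was highest in the late stage (17% of all genes were), and their median lead was -1.21, beside -0.39 over all genes.

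Across all members, late cells were set against hatching cells of the same class. In EPI-like cells 90 members were higher in the late stage (51.9% of all genes were), in PE-like cells 83 (66.4%) and in both classes 77 (38.7%). Over members the median difference was 0.65 for the EPI-like and 1.14 for the PE-like class, beside 0.02 and 0.43 over all genes. All genes together were 0.14 log2 units higher in late than in hatching cells in the median, and 0.03 after scaling cells by the median of ratios. The late EPI-like mean led early, middle and hatching EPI-like cells for 75 members (18.9% of all genes), the late PE-like mean led likewise for 81 (19.5%), and both did for 68 (5.9%). In 7 members only the EPI-like mean led, in 13 only the PE-like mean and in 12 neither. The rule used the late, early, middle and hatching means of these cells, so these counts are not independent of the choice. The 12 with neither lead all belong to the endoderm-side set, among them SLC7A8, NID2, APOA1, NRG1, CDH2, ANXA4 and SOX17.

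**Figure D5:**
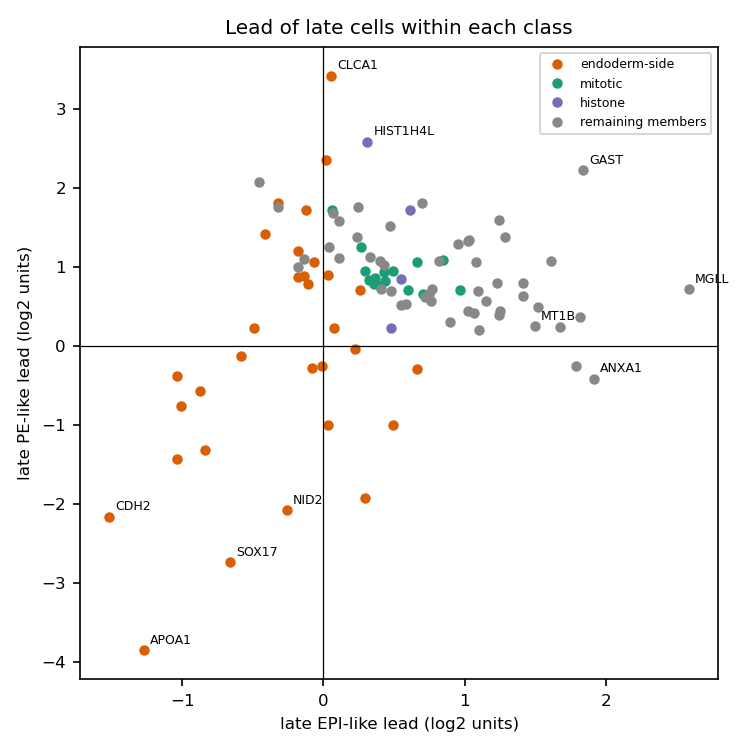
Late lead within EPI-like cells (horizontal) and within PE-like cells (vertical) in log2 units, each being the late mean of the class minus the highest of the early, middle and same-class hatching means; each dot is a member, coloured by set. The 68 members in the upper right lead in both classes, among them the 15 mitotic and 4 histone genes, and the 12 in the lower left lead in neither, with APOA1 at -1.27 and -3.86.

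Title numbers and title prefixes are the only labels below the stage, and their meaning is not given. The prefix is HSL for 5 late cells (2 EPI-like, 3 PE-like) and HSM for middle cells HSM1 and HSM2. The HSL cells are in neither number range below, and HSL23 had the highest endoderm-side level of the late cells, 5.81. With the HSL and HSM cells left out, 87 of the 100 members stayed among the 100 highest leads. The 18 late cells numbered 3 to 22 (9 EPI-like, 9 PE-like) and the 29 numbered 25 to 61 (12 and 17) were both above the other stage means for 98 members (9.02% of all genes), and the exceptions were POLR3GL and HIST1H3I, which missed in the lower numbers. These are the cells whose mean chose the members, so the count is largely fixed by the rule and is no check of it. The number ranges differed by at least 1 log2 unit for 17 members (8.07% of all genes), of which 11 were higher in cells 3 to 22 and 6 in cells 25 to 61. GAST averaged 8.30 (SD 1.73) in cells 3 to 22, where all 18 cells were above 1 FPKM, and 5.32 (SD 3.22) in cells 25 to 61. CD53 averaged 8.12 and 6.14. POLR3GL, a subunit variant of RNA polymerase III, had the opposite order with 2.98 and 5.11. Without late cell L13, 95 of the 100 members stayed among the 100 highest leads, 37 were at least 1 unit higher in PE-like cells and 78 were higher in late than hatching cells of both classes.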

How the data were processed

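RNA of single inner cells was amplified as cDNA by PCR and sequenced, with a library for each cell, per the labels' protocols. The authors deposited FPKM values for 16049 gene symbols in 161 cells. Tools named without role or order in the submitters' processing notes are FastQC, TopHat2 2.1.0, HTSeq and DESeq2. Genome build, annotation and strand setting: not given in the sources used here.

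Groups follow the stage label of a cell. Levels are means over cells of log2(FPKM + 1), a scale that understates the difference of low genes. No test was made, because each stage is 1 sample. Depth was read from the steps between low FPKM values, which gave whole reads for 13817 of the 13857 genes above 0 in 2 or more cells (tolerance 2e-06 relative, 1e-05 absolute). The median cell had 10.9 M (mega) such reads (2.90 to 18.3 M).

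Classes were formed within the late and within the hatching stage from the 1000 most variable genes that are neither members nor listed, by 10 principal components and Ward clustering into 2 to 4 clusters, chosen by silhouette. A name required 5 cells and 3 raised markers of its class (by 1 log2 unit, and at 1 FPKM in 50% of the cells), more than of any other class. This naming rule was set after the clusters were seen. No doublet caller was run, since each cell was picked individually. Sets of members came from average linkage on 1 - r, split at a distance of 0.7.

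The members, lists and rules were chosen with earlier results of these data known. Named genes are the 25 with the largest leads, up to 4 members per list, the 6 most different between classes each way, the 5 highest in late cells, the 5 largest gains and the 5 lowest shares in detection, those at the limit, and neighbouring members. A member is not reported here by name. Other names were chosen after their values were seen. Of the 100 members, 86 matched the RefSeq annotation of T2T-MMU8v2.0, used for names and chromosomes. Alternatives covered the pseudocount, filter, averaging, scaling, title numbers and prefixes, classes and single cells. The ranking was tested on simulated data. The software was Python 3.11.15 with matplotlib 3.10.9, scikit-learn 1.9.0, scipy 1.17.1, numpy 2.4.6 and pandas 2.3.3.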

Additional observations from a re-analysis of the deposited data

How the results depend on the processing

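Membership depended on how a stage was summarised. Of the 100 members, 52 stayed among the 100 highest leads with a pseudocount of 10, 50 with medians over cells, 46 with the log2 of the mean FPKM, 43 and 64 with late cells 3 to 22 and 25 to 61, 56 and 58 with hatching cells 1 to 18 and 22 to 47, 66 with classes weighted equally, 26 with late EPI-like and 49 with late PE-like cells alone. Between 77 and 100 stayed under the 8 other alternatives. The median lead of the members was 1.34 with a pseudocount of 0.1 and 0.37 with 10. The count at least 1 unit higher in PE-like late cells was 19 with a pseudocount of 10; in EPI-like cells it was 13 with 0.1, 3 with 10 and 12 with all stages clustered together. With 5 principal components the 7 hatching PE-like cells stayed unnamed, so late and hatching classes were not compared.

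Leads fell below 0 for 14 members with the log2 of the mean, 14 with hatching cells 1 to 18, 12 with hatching cells 22 to 47, 11 with equal classes, 31 with late EPI-like and 4 with late PE-like cells alone, 3 with medians and 2 with late cells 3 to 22; for APOA1, SOX17 and CDH2 they did in the log2 of the mean, hatching cells 1 to 18, equal classes and EPI-like settings. Among named members with a lead of at least 1, leads fell below 0 with the log2 of the mean for NID2 (-0.39) and PLP2 (-0.47); with hatching cells 1 to 18 for SLC7A8 (-0.38) and NID2 (-1.82); with hatching cells 22 to 47 for CD53 (-0.25), GTSE1 (-0.26) and PIF1 (-0.16); with equal classes for SLC7A8 (-0.026) and NID2 (-0.93). In late EPI-like cells alone they did for CEACAM6 (-0.61), SLC7A8 (-1.10), NID2 (-2.23), MAPRE2 (-0.029), OLFML2B (-0.41) and SLC2A1 (-0.14). The median late minus hatching PE-like difference of the endoderm-side set, -0.14, was 0.61 with all stages clustered together and 0.44 with PE-like cells by marker score. The causes were not tested. Leaving out L13, or the 3 late and 1 middle cells under 5 M (mega) recovered reads, was chosen after seeing the data, as were the settings for the endoderm-side set, and kept 95 and 87 members. Without embryo labels, no spread between embryos can be given.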

Other observations

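Of the 86 members with a match in the annotation, 13 lie on chromosome 1 (15.1%, against 10.3% of the 9104 matched genes) and 12 on chromosome 7. Chromosome 7 carries 6.47% of the matched genes and 14% of the matched members, among them NID2, SLC7A8, SLC7A7, TCL1B, PIF1, PRC1, KIF23 and METTL3, which fall in different sets. In 3 cases members are near neighbours: CCDC91 and FAR2 on chromosome 11 have 0 protein-coding genes between them and had r of 0.16 over the late cells, TLE6 and GNA11 on chromosome 19 had r of -0.16, and SYNE3 and TCL1B on chromosome 7 had r of 0.02.

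Of 38 gene lists, 23 held no member and 11 held 1. The share of genes with the highest mean in the late stage, 17% over all genes, varied between lists. None of 17 immediate early genes, 0 of 18 oxidative stress genes and 0 of 16 oxidative phosphorylation genes with a mean of 1 FPKM had their highest mean in the late stage. It was 5 of 17 genes (29.4%) in the heat shock list, 4 of 14 (28.6%) in the keratin and desmosome list and 4 of 11 (36.4%) in the cytokine list, none of which held a member. Of 25 genes of the actin and membrane cortex list 12 were highest in the late stage, with a median lead of -0.09, and ANXA1 alone was a member. ZMAT3 was the single member among 15 genes of the p53 response, of which 3 were highest in the late stage.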
